A study of Danio rerio with 15 samples.

Results

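The respiratory chain genes of the zebrafish embryo head were described here from 127 of the 23009 genes in the deposited tables. Members were taken by name alone. They are genes named as NADH dehydrogenase, succinate dehydrogenase, cytochrome bc1, cytochrome c oxidase or ATP synthase subunits (nduf, sdh, uqcr, cox and atp5), the mitochondrially encoded mt- genes, and the genes whose names begin with AC024175. They comprised 13 mitochondrially encoded protein genes, 86 nuclear subunit genes, 10 nuclear assembly factors, the ATP synthase-like gene atp5s, and 17 AC024175 genes, counted here as mitochondrial and noncoding. cyc1, the nuclear gene of cytochrome c1, falls outside the naming rule and is given with the other pathway genes.

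RNA was sequenced from heads at 2 days post-fertilization of embryos from natural matings of wild-type fish, in pools of 20 embryos kept at 28 °C. There were 15 libraries in 3 groups of 5. The embryos had been injected with a guide RNA against ncapg2 together with Cas9 (libraries S11 to S15), with the guide RNA alone (S6 to S10), or with the dye phenol red (S1 to S5). ncapg2 encodes a subunit of condensin II, which compacts chromosomes. Injected embryos were not a stable line, a pool can mix edited and unedited cells, and no group had Cas9 without this guide, so editing and Cas9 itself cannot be told apart. The comparisons address how the transcriptome of the head differs with guide RNA plus Cas9 against ncapg2, and for these genes whether the chain's transcripts moved together. In bulk tissue, fewer cells of a type and less RNA per cell cannot be told apart.

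The respiratory chain sits in the inner mitochondrial membrane. Complexes I and II take electrons from NADH and succinate, complex III passes them to cytochrome c, complex IV passes them to oxygen, and complex V uses the resulting proton gradient to make ATP. Core proteins of every complex except complex II are encoded in mitochondrial DNA and transcribed inside the organelle as long precursors from both strands, whereas the remaining subunits are made in the cytosol from nuclear genes, so each of those complexes needs both genomes.

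The libraries held 41.58 to 48.51 M reads (M, mega) assigned to genes with guide RNA plus Cas9, 39.79 to 49.3 M with guide RNA and 34.97 to 46.46 M with phenol red. The targeted gene, ncapg2, had a normalized count of 428 ± 48.4 with guide RNA plus Cas9, 912 ± 73.7 with guide RNA and 856 ± 69.7 with phenol red (SD, n = 5 each). For either difference from the Cas9 group the exact permutation p (two-sided) was 0.008, the smallest that the 252 regroupings of 5 against 5 allow, and guide RNA against phenol red gave an exact p of 0.246. Of 96 marker symbols for 9 cell types of the head and its surroundings, neurons, lens and photoreceptors among them, 93 were matched, 0 of these were at 0 in all libraries and 0 were called in limma without a block. That fit called 0.00463% of all genes tested in each comparison of guide RNA plus Cas9 and 0% for guide RNA against phenol red. Skeletal muscle markers (13 of 13 matched) summed to 271739.5 to 327155 normalized counts with guide RNA plus Cas9, 254087 to 352321 with guide RNA and 243989 to 317623 with phenol red. Neuronal markers (9 of 10 listed were matched) summed to 122759 to 133308, 112041 to 138418 and 109173 to 135607 in the same groups. Yolk and liver markers (13 of 14 matched) varied most between libraries, with sums between 13952 in S14 and 97531 in S1, and the 3 groups overlapped. Most heart markers were below phenol red, with a median log2 fold change of -0.30 with guide RNA plus Cas9 (7 of 9 negative). With guide RNA alone it was -0.28 (8 of 9 negative). All 10 lens markers were below phenol red with guide RNA alone (median -0.16). All 10 were higher with guide RNA plus Cas9 than with guide RNA alone (median 0.15). Summed counts of both lists overlapped between the groups.

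No member of the respiratory chain was called between any of the groups. In limma, a linear model with moderated variances fitted to log2(normalized count + 1) over all genes, 126 of the 127 members passed a filter of 10 or more in at least 5 libraries and were tested. For guide RNA plus Cas9 over guide RNA, 0 members had an adjusted p under 0.05, beside 0.00463% of all genes tested, which was ncapg2 alone. At an unadjusted p under 0.05 there was 1 member (0.794%), beside 0.917% of all genes. edgeR and DESeq2 on recovered reads also called 0 members, each with 1 at that unadjusted level. The authors' deposited table likewise has 1 member at the unadjusted level and no member called.

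Against phenol red, guide RNA plus Cas9 gave 0 called members, beside 0.00463% of all genes. The unadjusted count was 2 members (1.59%), beside 2.29% of all genes, with 2 in edgeR, 3 in DESeq2 and 3 in the authors' deposited table, each of which called 0 members. Guide RNA against phenol red gave 0 called members, beside 0% of all genes, and 1 member (0.794%) at an unadjusted p under 0.05, beside 1.04% of all genes tested. There edgeR had 1 member at the unadjusted level, DESeq2 had 0 and so did the authors' deposited table, and each called 0. In limma the members' shares at the unadjusted level rest on 1 or 2 genes in each comparison, too few to tell them from the background.

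Libraries of different groups also varied together. Over genes outside the chain, S11, S6 and S1 deviated from their group means alike, as did S12, S7 and S2, then S13, S8 and S3, then S14, S9 and S4, and S15, S10 and S5. Each set holds the headings at 1 position in the numbering of the 3 groups. The sample titles number the replicates 1 to 5 in each group, which would give these sets if the headings follow that order, but no label ties a heading to a title. With the sets as a block in limma, 0 members were called, beside 0.0139% of all genes for guide RNA plus Cas9 over guide RNA, 0.00927% for guide RNA plus Cas9 over phenol red and 0.0185% for guide RNA over phenol red. At an unadjusted p under 0.05 there were 5, 7 and 2 of the 126 members in the same order, beside 4.55%, 9.12% and 7.71% of all genes. Among the marker genes, the block called rhcgl1, an ammonium transporter gene of ionocytes, cells rich in mitochondria, at 155 ± 144 with guide RNA plus Cas9 and 296 ± 322 with guide RNA (SD, n = 5 each; log2 fold change -0.78 ± 0.11, SE, adjusted p = 0.0257 with the block and 1 without). It also called nppa, a natriuretic peptide gene of the heart, at 162 ± 49.4 with guide RNA and 252 ± 57.6 with phenol red (-0.67 ± 0.09, SE, adjusted p = 0.0109 with the block and 1 without). Both genes are named after their values were seen, and their part in the members' levels was not tested. Other heart markers also moved in this fit. At an unadjusted p under 0.05, 7 of 9 were lower with guide RNA than with phenol red, beside 7.71% of all genes. With guide RNA plus Cas9, 6 of 9 were lower than with phenol red, beside 9.12% of all genes. Since the sets were found from these data, this fit is a description of the libraries.

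The intervals were narrow for most members. For all 13 mitochondrially encoded protein genes, the 95% interval of the fold change lay within 1.5-fold in each of the 3 comparisons. Among the 86 nuclear subunits it did so for 80 for guide RNA plus Cas9 over guide RNA, 79 for guide RNA plus Cas9 over phenol red and 80 for guide RNA over phenol red. Over all members tested, 87.3%, 85.7% and 86.5% of intervals lay within it in those comparisons, beside 85.6%, 84.9% and 84.6% of all genes.

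The mitochondrially encoded protein genes took a similar share of the reads in the 3 groups. In percent of the assigned reads, the 13 genes held 2.37, 2.61, 2.20, 2.26 and 2.37 with guide RNA plus Cas9, 2.55, 2.63, 2.27, 2.10 and 2.52 with guide RNA and 2.58, 2.39, 2.46, 2.25 and 2.59 with phenol red. The lowest share was in S9 and the highest in S7, both libraries of guide RNA alone, and the groups overlapped. The group means were 2.36% ± 0.157 with guide RNA plus Cas9, 2.41% ± 0.22 with guide RNA and 2.45% ± 0.144 with phenol red (SD, n = 5 each). Nuclear subunits held 0.842% ± 0.0167, 0.846% ± 0.0452 and 0.854% ± 0.0539 in the same groups. Libraries were made from RNA captured by its poly(A) tail, so these shares describe captured transcripts.

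mt-co1, the catalytic core of cytochrome c oxidase, had normalized counts of 284345, 333812, 280117, 284353 and 311654 with guide RNA plus Cas9, 300578, 338961, 285575, 258528 and 317955 with guide RNA and 296054, 298799, 305174, 290867 and 333581 with phenol red. S7 and S12 were the highest of their groups and S9 was the lowest of all 15. Its log2 fold change was -0.0043 ± 0.08 (SE) for guide RNA plus Cas9 over guide RNA and -0.03 ± 0.06 for guide RNA plus Cas9 against phenol red. mt-co2, which carries the copper site that receives electrons from cytochrome c, stood at -0.06 ± 0.07 and -0.07 ± 0.07 in those comparisons, and mt-co3, the remaining mitochondrial core subunit of complex IV, at -0.01 ± 0.07 and -0.01 ± 0.06.

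mt-cyb, the cytochrome b of complex III and its only mitochondrially encoded subunit, had 102187, 117134, 89630.4, 88550.1 and 93485 with guide RNA plus Cas9, 116616, 119613, 93474, 79726 and 104788 with guide RNA and 108351, 100250.2, 104217, 87554 and 103788 with phenol red. It ran from 79726 in S9 to 119613 in S7, so the spread within the guide RNA group held the values of both other groups. Its log2 fold change was -0.06 ± 0.11 (SE) for guide RNA plus Cas9 over guide RNA, -0.04 ± 0.09 for guide RNA plus Cas9 against phenol red and 0.02 ± 0.11 for guide RNA against phenol red.

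The 7 mitochondrially encoded subunits of complex I form its proton-pumping membrane arm. With guide RNA plus Cas9 over guide RNA their median log2 fold change was -0.03, with 1 of 7 above 0, and against phenol red it was also -0.03, with 1 of 7 above 0. mt-nd2 was the member above 0 in both, at 0.01 ± 0.07 and 0.06 ± 0.07 (SE). The largest departures were -0.06 ± 0.08 for mt-nd4l against guide RNA and -0.08 ± 0.09 for mt-nd3 against phenol red. mt-nd1, mt-nd4 and mt-nd5 lay between -0.04 ± 0.06 (mt-nd1) and -0.01 ± 0.06 (mt-nd5) against guide RNA, with mt-nd4 at -0.03 ± 0.08. The ATP synthase subunits mt-atp6, which lines the proton channel, and mt-atp8, which supports its assembly, were at -0.05 ± 0.07 and -0.04 ± 0.08 against guide RNA and -0.03 ± 0.07 and -0.01 ± 0.10 against phenol red. In the RefSeq gene order (assembly GRCz12tu, names and order only) mt-atp8 adjoins mt-atp6 and mt-nd4l adjoins mt-nd4, and reads over such junctions can be split between neighbours.

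Over the 13 genes, 12 had a negative and 1 a positive log2 fold change for guide RNA plus Cas9 over guide RNA (median -0.04, range -0.06 to 0.0052), and likewise 12 and 1 against phenol red (median -0.03, range -0.08 to 0.06). These comparisons share the Cas9 libraries. The 13 genes also moved together within libraries, with all 13 above their mean in S10 and all 13 below in S13, so their signs are not independent. The medians of all genes tested were 0.0018 and 0.0049, with 50.9% and 52.2% of them above 0. Cytosolic ribosomal protein genes, listed as a class of abundant short transcripts outside the mitochondrion, also lay below 0, with 72 of 78 negative and a median of -0.02 against guide RNA, and 68 of 78 negative and a median of -0.05 against phenol red. For guide RNA against phenol red, 6 mitochondrially encoded genes were above 0 and 7 below (median -0.001). The median of all genes was 0.0079 there, with 54.7% above 0.

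mt-nd6 was the most variable of the mitochondrially encoded protein genes, and it went with the other 12 in some libraries and against them in others. It is the 1 protein gene of this genome that vertebrates read from the opposite strand, and its product belongs to the membrane arm of complex I. It had 2614, 2241, 2003, 2184 and 1718 with guide RNA plus Cas9, 1981, 2005, 2085, 2534 and 2425 with guide RNA and 2433, 2779.8, 2157, 1845 and 1896 with phenol red. S2 was the highest library and S15 the lowest, and the groups overlapped. Its SD of log2 values over the 15 libraries was 0.200, the largest of the 13 genes, which had a median SD of 0.111. In S9 all 12 other genes were below their mean, with a mean log2 deviation of -0.191, while mt-nd6 stood at 0.221. In S5 all 12 were above (0.112) and mt-nd6 was at -0.197, in S7 all 12 were above (0.150) and mt-nd6 was at -0.117, and in S2 11 of 12 were below (-0.053) and mt-nd6 was at 0.355. mt-nd6 and the mean of the other 12 deviated in opposite directions in 9 of 15 libraries, of which S3, S14 and S15 rest on a deviation near 0 (-0.011 and 0.007 for mt-nd6 in S3 and S14, 0.006 for the others in S15). They went the same way in S4, where 10 of 12 were below (-0.105) and mt-nd6 was at -0.236, in S13, where all 12 were below (-0.112) and mt-nd6 was at -0.118, and in S10, where all 12 were above (0.063) and mt-nd6 was at 0.157. The sources used here give no strand setting for the authors' counting, and without it reads from mt-nd6 and from transcripts of the opposite strand cannot be told apart. mt-nd6 was at -0.04 ± 0.11 (SE) for guide RNA plus Cas9 over guide RNA and -0.04 ± 0.13 against phenol red.

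The level of a class in a library was summarized as a score, the mean over its genes of the log2 deviation from the gene's mean over the 15 libraries. The mitochondrially encoded score was -0.02, 0.15, -0.11, -0.09 and -0.02 with guide RNA plus Cas9, 0.07, 0.13, -0.06, -0.16 and 0.07 with guide RNA and 0.04, -0.02, 0.05, -0.11 and 0.09 with phenol red. The score of the 86 nuclear subunits was -0.07, 0.05, 0.0037, -0.06 and -0.02 with guide RNA plus Cas9, 0.14, 0.01, -0.10, -0.10 and 0.09 with guide RNA and 0.13, -0.03, 0.01, -0.13 and 0.08 with phenol red. Both were low in S4, S8, S9 and S14 and high in S12, S5, S6 and S10, in libraries of each group, and the groups overlapped for both.

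**Figure D1:**
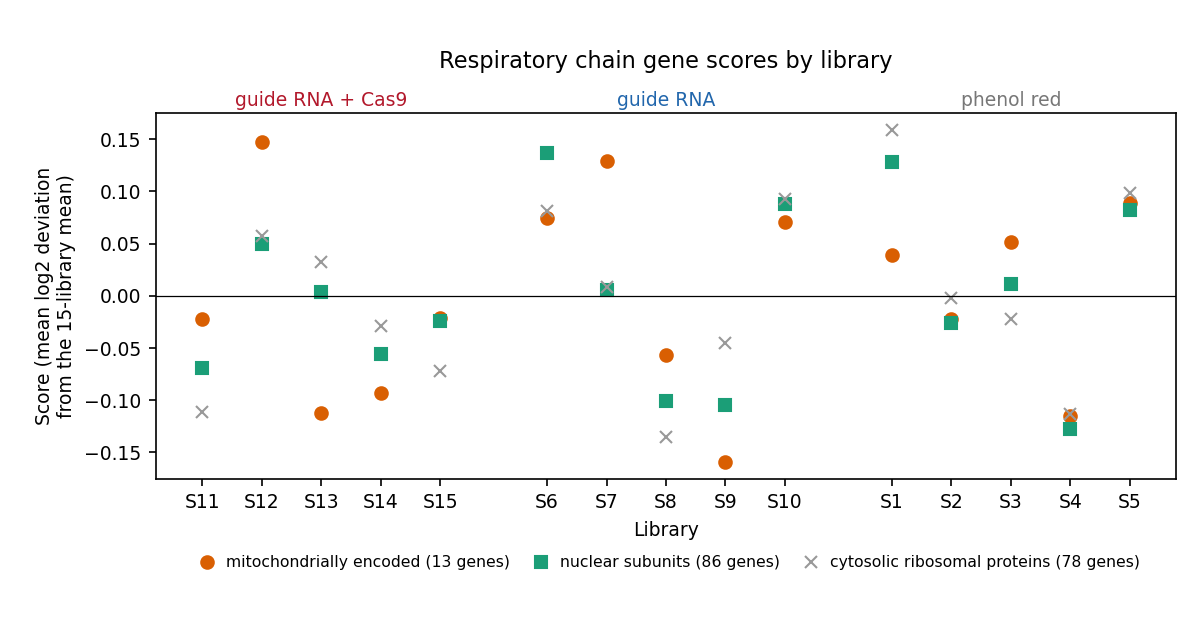
Scores of the 13 mitochondrially encoded protein genes (circles), the 86 nuclear subunits (squares) and the 78 cytosolic ribosomal protein genes (crosses) in each of the 15 libraries; the y axis is the mean log2 deviation from the 15-library mean, with guide RNA plus Cas9 on the left, guide RNA in the middle and phenol red on the right. S12, S7 and S3 have circles above their squares and S13, S6 and S1 have squares above their circles, so each group holds libraries of both kinds.

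Mitochondrially encoded and nuclear transcripts did not keep a fixed ratio from pool to pool. The mitochondrial minus nuclear score was 0.05, 0.10, -0.12, -0.04 and 0.003 with guide RNA plus Cas9, -0.06, 0.12, 0.04, -0.06 and -0.02 with guide RNA and -0.09, 0.0045, 0.04, 0.01 and 0.01 with phenol red. By this score, in which every gene weighs equally, the highest values were in S7 and S12 and the lowest in S13 and S1. Shares of the assigned reads, which abundant genes dominate, need not rank the libraries alike. The mitochondrially encoded genes and the nuclear subunits held 2.58% and 0.937% in S1, beside 2.10% and 0.822% in S9. In S13, all 13 mitochondrially encoded genes were below their mean while 48 of 86 nuclear subunits were above theirs. In S7, 12 of 13 mitochondrially encoded genes were above, with 46 of 86 nuclear subunits above. In S4 and S10 the classes moved together, with 11 of 13 and 73 of 86 genes below their means in S4, and 13 of 13 and 76 of 86 above in S10. The group means of the difference were -0.0014 ± 0.0815 with guide RNA plus Cas9, 0.0065 ± 0.0777 with guide RNA and -0.0051 ± 0.0492 with phenol red (SD, n = 5 each), so the groups differed by far less than the pools within them.

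The nuclear score was high and low in many of the same libraries as classes outside the chain. Cytosolic ribosomal proteins had scores of -0.11, 0.06, 0.03, -0.03 and -0.07 with guide RNA plus Cas9, 0.08, 0.01, -0.14, -0.04 and 0.09 with guide RNA and 0.16, -0.0016, -0.02, -0.11 and 0.10 with phenol red. They were lowest in S8, S4 and S11 and highest in S1, S5 and S10, and the nuclear score was low in S8 and S4 and high in S1, S5 and S10 as well. Mitochondrial ribosomal proteins (72 genes) were lowest in S4 and S8, at -0.13 and -0.10, and highest in S6 and S10, at 0.11 and 0.10. The neuronal marker score ran the other way in several libraries, at -0.21 in S1 and -0.16 in S6, against 0.12 in S4 and 0.13 in S8. The part of tissue composition in these scores was not tested.

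**Figure D2:**
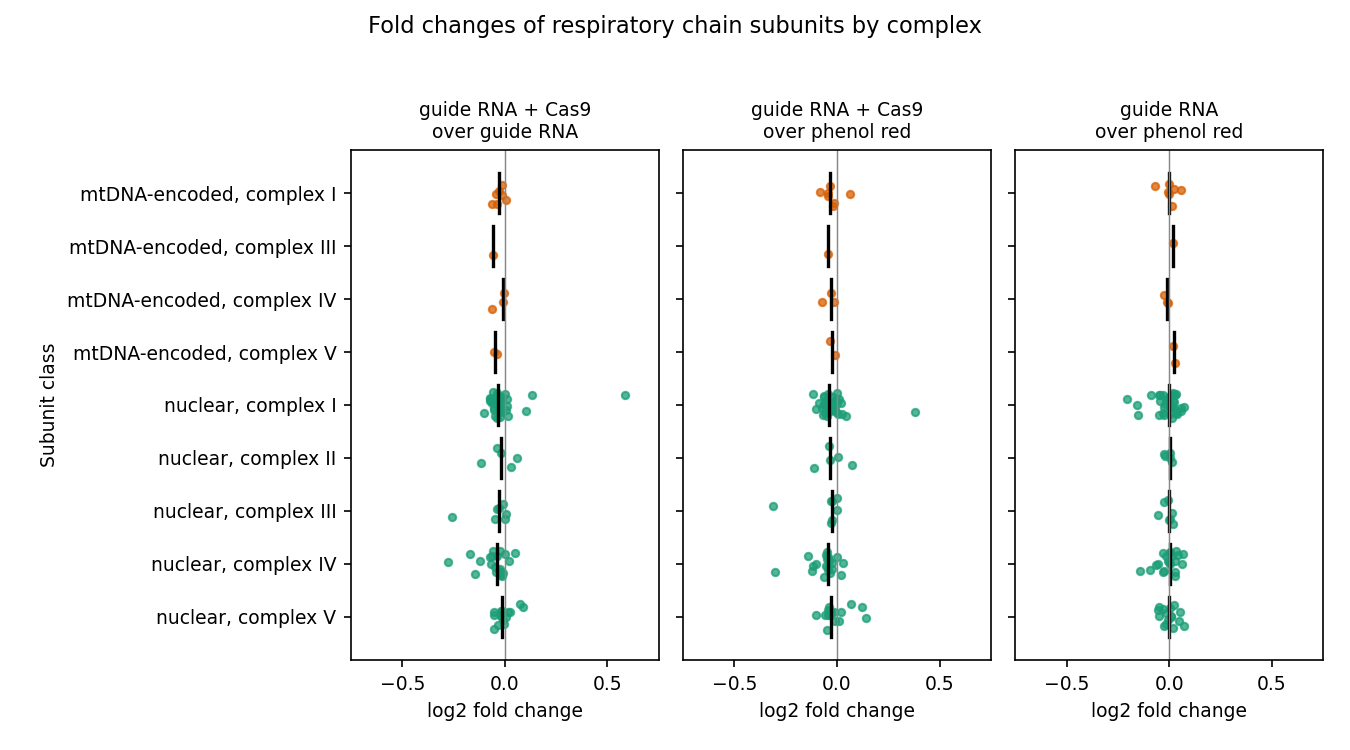
log2 fold change of each subunit gene (points) by genome and complex, with the class median as a black bar, for guide RNA plus Cas9 over guide RNA, guide RNA plus Cas9 over phenol red and guide RNA over phenol red; a positive value means higher in the first-named group. Class medians lie between -0.06 and 0.02, and the widest single value is 0.59 for ndufs8b.

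Among the 37 nuclear subunits of complex I, 8 had a positive log2 fold change for guide RNA plus Cas9 over guide RNA (median -0.03) and 7 against phenol red (median -0.04), and 17 for guide RNA against phenol red (median -0.0023). ndufv1, the flavoprotein that accepts electrons from NADH and the subunit with the most reads of this class, had 7235, 8022, 8617, 7962 and 8368 with guide RNA plus Cas9, 7331, 7722, 8227, 7896 and 8591 with guide RNA and 7036, 7706, 7991, 8113 and 8728 with phenol red. Its lowest libraries were S1, S11 and S6, 1 in each group, and its fold changes were 0.02 ± 0.06, 0.02 ± 0.07 and 0.01 ± 0.07 (log2, SE) in the 3 comparisons.

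ndufb7, an accessory subunit on the intermembrane side, had 1807 ± 126 with guide RNA plus Cas9 and 1936 ± 128 with guide RNA (SD, n = 5 each), a log2 fold change of -0.10 ± 0.06 with an unadjusted limma p of 0.141 and an adjusted p of 1. The ranges overlapped, with S11 and S15 lowest. ndufa12, an accessory subunit, had the fewest reads of complex I in this table, between 12.8 in S10 and 36.04 in S1, and so its values carry large counting error.

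Complex I genes with a second copy in zebrafish differed in how steady the minor copy was. ndufab1b, 1 of the 2 genes for the mitochondrial acyl carrier protein, held 45.7% ± 1.13 of the pair's counts with guide RNA plus Cas9, 44.7% ± 1.08 with guide RNA and 44.7% ± 1.22 with phenol red (SD, n = 5 each). ndufs8b, the minor gene for an iron-sulphur subunit, held 1.04% ± 0.433, 0.731% ± 0.417 and 0.79% ± 0.35 of its pair with ndufs8a. Its counts were 39.5, 54.2, 89.7, 38.9 and 47.5 with guide RNA plus Cas9, 30.8, 33.03, 67.5, 12.03 and 52.3 with guide RNA and 25.4, 48.4, 67.6, 24.2 and 45.3 with phenol red, high in S13, S8 and S3 and low in S9, S1 and S4. This gave the widest fold change among nuclear subunits, 0.59 ± 0.40 (log2, SE; unadjusted p = 0.167 and adjusted p = 1 in limma), and the groups overlapped. ndufa9b held 1.5% ± 0.201, 1.4% ± 0.381 and 1.54% ± 0.211 of its pair with ndufa9a.

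The 10 assembly factors had a median SD of log2 values of 0.162, beside 0.104 for 79 nuclear subunits of mean 50 or more. For all genes of mean 50 or more the median was 0.141. The assembly factors had mean normalized counts from 243 (ndufaf7) to 1011 (sdhaf2), lower than most nuclear subunits. The part of this lower level in the wider spread was not tested. ndufaf7, a methyltransferase that acts in complex I assembly in human cells, had 279, 262, 213, 256 and 266 with guide RNA plus Cas9, 291, 259, 217, 221 and 259.5 with guide RNA and 239.5, 233, 206, 197 and 240.1 with phenol red. S4 and S3 of phenol red were lowest and S6 of guide RNA was highest. The log2 fold change was 0.19 ± 0.10 (SE; unadjusted p = 0.0679) for guide RNA plus Cas9 against phenol red and 0.16 ± 0.10 (unadjusted p = 0.154) for guide RNA against phenol red, both with an adjusted p of 1 in limma and overlapping groups.

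Complex II is made of nuclear gene products alone. Of its 5 genes, 2 had a positive log2 fold change for guide RNA plus Cas9 over guide RNA (median -0.02) and 2 for guide RNA plus Cas9 over phenol red (median -0.03). sdha, its flavoprotein, had 6705, 7629, 7938, 7525 and 7602 with guide RNA plus Cas9, 6089.9, 7302, 7775, 7563 and 7227 with guide RNA and 5476, 7364, 7343, 8340.4 and 7301 with phenol red. S1, S6 and S11 were the lowest libraries of their groups, and S4 was the highest of all. The log2 fold change was 0.06 ± 0.07 (SE) for guide RNA plus Cas9 over guide RNA and 0.07 ± 0.10 for guide RNA plus Cas9 against phenol red. sdhb, the iron-sulphur subunit, was highest in S10 at 4907 and lowest in S7 at 3590.2. The membrane anchor gene sdhda, with the fewest reads of the complex, ran from 22.2 in S3 to 68.8 in S10 and held 2.34% ± 0.849, 2.47% ± 0.908 and 2.46% ± 0.801 of its pair with sdhdb with guide RNA plus Cas9, guide RNA and phenol red.

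sdhaf1 was the member with the smallest p in both comparisons of guide RNA plus Cas9, which share the Cas9 libraries. It helps to insert iron-sulphur clusters into the sdhb product. Normalized counts were 268, 295, 249, 269 and 301 with guide RNA plus Cas9, 352, 336, 346, 253 and 369 with guide RNA and 341, 339, 335, 272 and 397 with phenol red. The Cas9 libraries lay between 249 and 301, and they overlapped guide RNA only through S9 and phenol red only through S4. The log2 fold change was -0.25 ± 0.10 (SE) against guide RNA, with an unadjusted p of 0.0321, and -0.28 ± 0.10 against phenol red, with an unadjusted p of 0.0151, and the limma adjusted p was 1 in both. The authors' deposited table gives -0.26 ± 0.12 and -0.29 ± 0.12 (log2, SE) for the same comparisons, also with an adjusted p of 1. sdhaf4, another succinate dehydrogenase assembly factor, was at -0.12 ± 0.07 against phenol red, sdhaf3 at 0.04 ± 0.11 and sdhaf2, which attaches the flavin to sdha, at -0.04 ± 0.12.

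**Figure D3:**
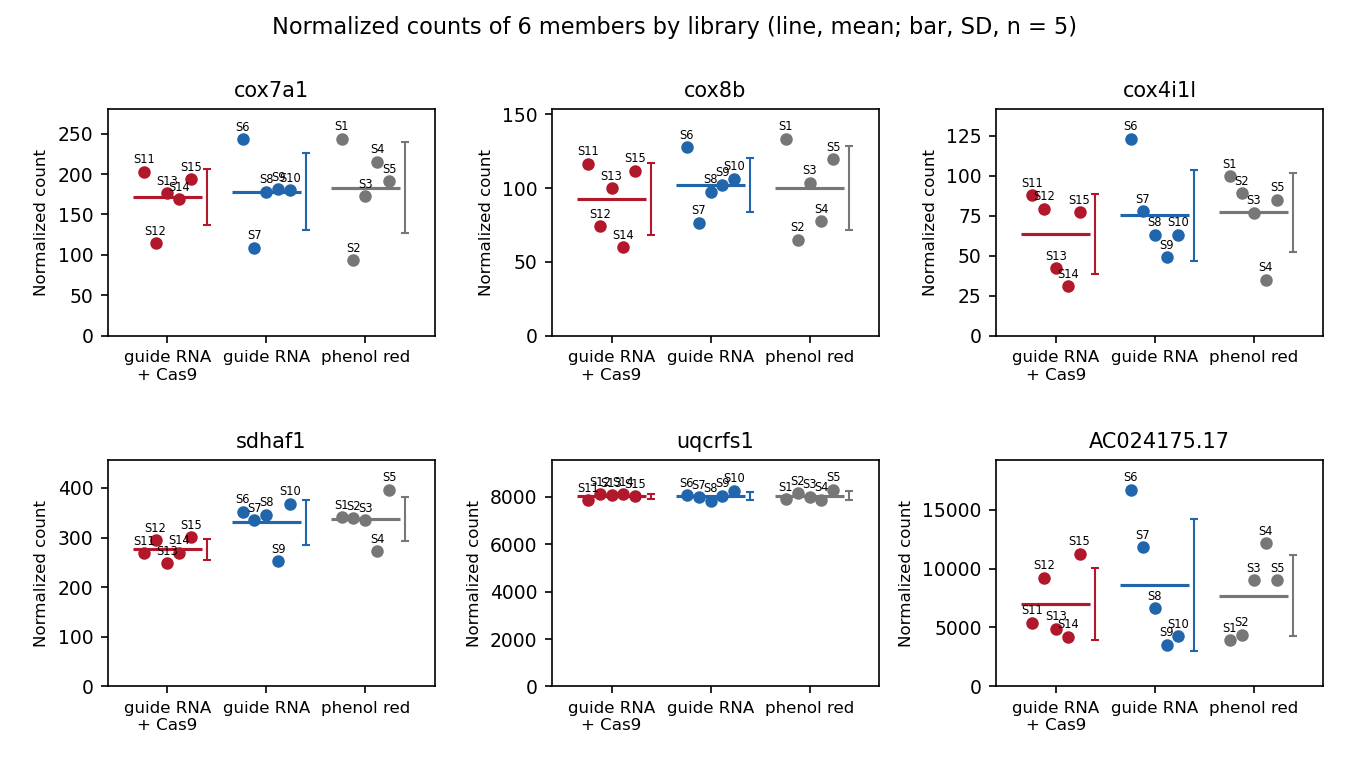
Normalized counts of cox7a1, cox8b, cox4i1l, sdhaf1, uqcrfs1 and AC024175.17 in each library (points, labelled), with group mean (line) and SD (bar, n = 5), for guide RNA plus Cas9, guide RNA and phenol red from left to right; every y axis starts at 0. cox7a1 is lowest in S12, S7 and S2, 1 library of each group, and uqcrfs1 stays between 7840 and 8314 throughout.

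Complex III held the steadiest member. Of its 7 nuclear genes, 1 had a positive log2 fold change for guide RNA plus Cas9 over guide RNA (median -0.03) and 1 for guide RNA plus Cas9 over phenol red (median -0.02). uqcrfs1, the Rieske iron-sulphur protein, had the smallest SD of log2 values of all members, 0.0250, beside a median of 0.141 for all genes of mean 50 or more. Its range was 7840.2 in S8 to 8314 in S5, and its log2 fold change was -0.0012 ± 0.04 (SE) for guide RNA plus Cas9 over guide RNA and -0.0021 ± 0.05 for guide RNA plus Cas9 over phenol red. uqcrc1, a core protein and the subunit of this complex with the most reads, had 8152 ± 176, 8371 ± 507 and 8306 ± 750.0 with guide RNA plus Cas9, guide RNA and phenol red (SD, n = 5 each). uqcrb, a quinone-binding subunit with few reads in this table, had 37.6, 39.3, 31.2, 36.9 and 27.7 with guide RNA plus Cas9, 49.5, 41.5, 34.6, 34.1 and 48.6 with guide RNA and 50.9, 38.5, 54.8, 41.1 and 32.6 with phenol red. S15 and S13 of the Cas9 group were the lowest libraries, S3 and S1 of phenol red the highest, and the groups overlapped. The log2 fold change was -0.26 ± 0.17 (SE; unadjusted p = 0.158) against guide RNA and -0.31 ± 0.18 (unadjusted p = 0.109) against phenol red, with an adjusted p of 1 in limma. The minor core gene uqcrc2a held 25.5% ± 1.33, 25.1% ± 1.16 and 25.2% ± 1.81 of its pair with uqcrc2b.

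Complex IV had the 3 most variable nuclear subunits of mean 50 or more, cox4i1l, cox7a1 and cox8b. cox7a1, which in mammals is the heart and muscle form of subunit VIIa, had 203, 115, 176, 169 and 194 with guide RNA plus Cas9, 243, 109, 178, 181 and 179.7 with guide RNA and 244, 93.6, 173, 215 and 191 with phenol red. The lowest library of each group was S12, S7 and S2, and the highest was S11, S6 and S1. cox8b, the heart and muscle form of subunit VIII in rodents, had 117, 74.3, 99.8, 59.8 and 112 with guide RNA plus Cas9, 128, 76.7, 97.7, 102 and 106 with guide RNA and 134, 64.95, 104, 77.4 and 119.6 with phenol red, again low in S12, S7 and S2 and high in S11, S6 and S1, with S14 lowest of all. The skeletal muscle markers summed to 325786 in S12, 304853 in S7 and 243989 in S2, and to 327155 in S11, 352321 in S6 and 305387 in S1. S2 was the lowest of the 15 libraries by the sum of these markers. Their class score was 0.16 in S12, 0.04 in S7 and -0.25 in S2. It was 0.20 in S11, 0.31 in S6 and 0.09 in S1. Heart markers (9 of 9) summed to 13649.8 in S12, 12346 in S7 and 12323 in S2, and to 13861 in S11, 11476 in S6 and 13228 in S1. The heart marker score was -0.0045 in S12, -0.14 in S7 and -0.0006 in S2, and 0.35 in S11, 0.23 in S6 and 0.42 in S1. The part of muscle and heart tissue in the subunit levels was not tested.

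cox4i1l, a copy of the largest nuclear subunit, had 88.1, 79.5, 42.3, 30.9 and 77.2 with guide RNA plus Cas9, 123, 77.8, 63.1, 49.1 and 63.3 with guide RNA and 99.6, 89.2, 76.96, 35.1 and 85.2 with phenol red. S6 and S1 were highest and S14, S4 and S13 lowest, and with an SD of log2 values of 0.557 it was the most variable nuclear subunit of mean 50 or more. Its log2 fold changes were -0.28 ± 0.31 (SE) for guide RNA plus Cas9 over guide RNA and -0.30 ± 0.34 for guide RNA plus Cas9 against phenol red, with wide intervals and no call. Those of cox7a1 were -0.04 ± 0.20 and -0.05 ± 0.24, and those of cox8b -0.17 ± 0.19 and -0.10 ± 0.23. By contrast cox4i1, the main gene for the same subunit and the one with the most reads among nuclear complex IV genes, had 8128 ± 255, 8557 ± 649 and 8378 ± 823 with guide RNA plus Cas9, guide RNA and phenol red (SD, n = 5 each).

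The shares of alternative complex IV forms overlapped between every pair of groups. cox4i2, the form that mammals raise in lung and low oxygen, held 12.9% ± 0.543 of the cox4 counts with guide RNA plus Cas9, 12.01% ± 0.489 with guide RNA and 12.98% ± 0.987 with phenol red (SD, n = 5 each). Its own log2 fold change was -0.09 ± 0.06 (SE; unadjusted p = 0.165, adjusted p = 1 in limma) for guide RNA against phenol red. cox7a1 held 4.43% ± 0.947, 4.53% ± 1.22 and 4.59% ± 1.46 of the counts of cox7a1, cox7a2a and cox7a3, and cox6a2, the muscle form of subunit VIa in mammals, 0.306% ± 0.06, 0.303% ± 0.102 and 0.353% ± 0.119 of its pair with cox6a1.

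cox6b2, which in mammals is a testis form, here held most of its pair with cox6b1, 74.4% ± 3.28 with guide RNA plus Cas9, 73.7% ± 1.79 with guide RNA and 75.4% ± 2.06 with phenol red. Its counts were 4937, 5372, 5467, 5119 and 5154 with guide RNA plus Cas9, 5981, 5325, 4880.4, 5197 and 5810.1 with guide RNA and 6225, 5392, 5889.9, 5037 and 5844 with phenol red, with a log2 fold change of -0.12 ± 0.07 (SE; unadjusted p = 0.0905, adjusted p = 1 in limma) for guide RNA plus Cas9 against phenol red. S1 was the highest library, and S8 and S11 the lowest. ndufa4, named for complex I and later placed in complex IV, was at -0.14 ± 0.10 and -0.14 ± 0.09 (SE) in the comparisons of guide RNA plus Cas9 with guide RNA and with phenol red, and its copy ndufa4l held 52.1% ± 3.28, 50.1% ± 2.63 and 50.1% ± 1.88 of the pair. Over the 21 nuclear genes of complex IV, 3 were above 0 against guide RNA (median -0.04), 3 against phenol red (median -0.04) and 12 for guide RNA against phenol red (median 0.0016).

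**Figure D4:**
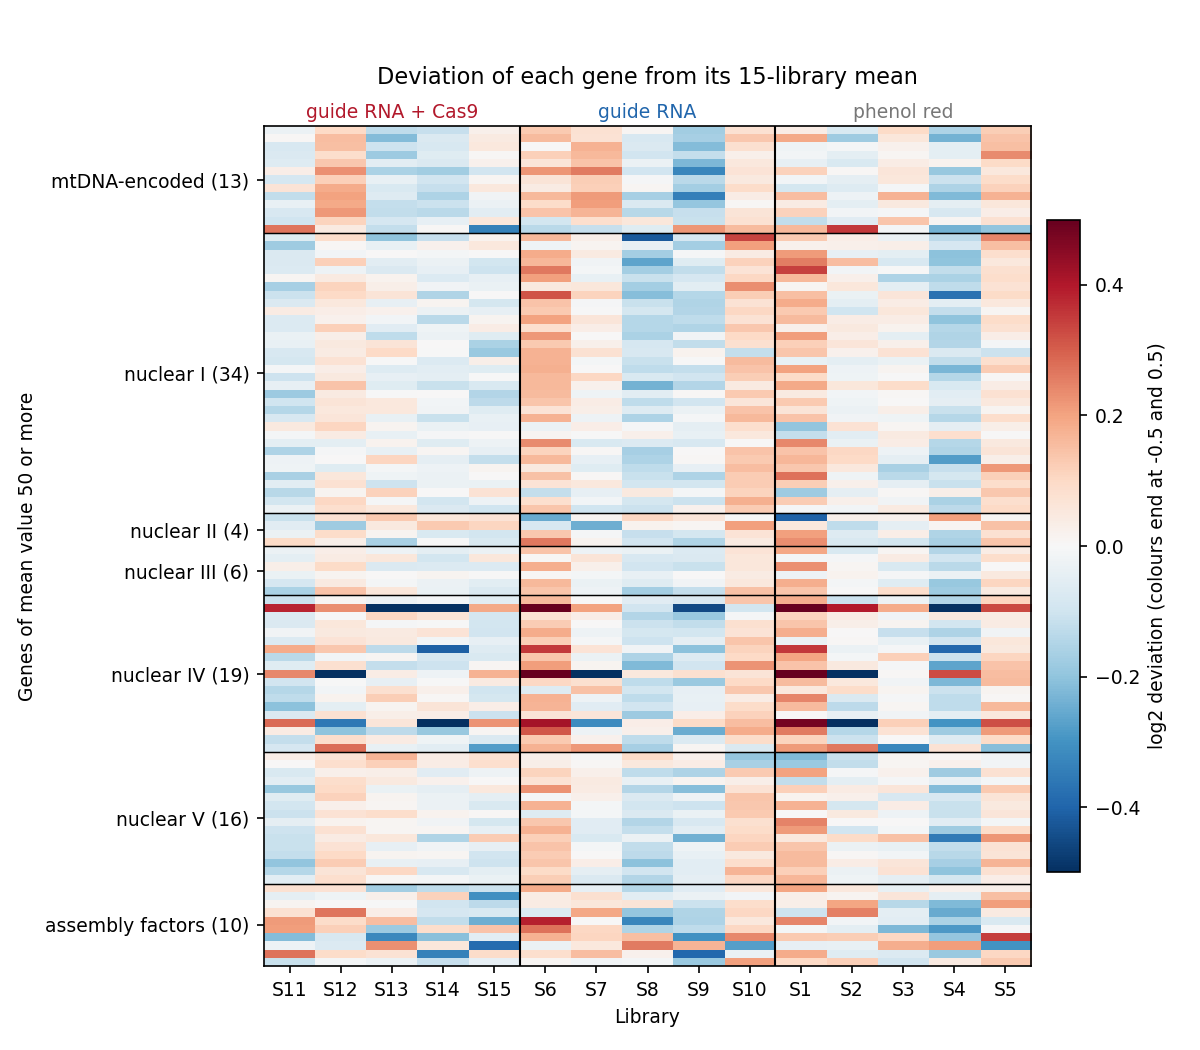
log2 deviation of each subunit and assembly factor of mean 50 or more (rows, grouped by genome and complex, with the number of genes) from its 15-library mean, by library (columns; guide RNA plus Cas9, guide RNA and phenol red from left to right). Columns S12, S6, S10, S1 and S5 are mostly above the mean and S11, S14, S8, S9 and S4 mostly below. The widest deviations are single rows of complex IV.

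Complex V gave the only member whose groups did not overlap. atp5a1 and atp5b encode the alpha and beta subunits of the catalytic head. atp5a1 had 35383, 36280.2, 38933, 35514 and 36321 with guide RNA plus Cas9, 35208, 34355, 36968, 35135 and 30245 with guide RNA and 29685, 32044, 34936, 34701 and 34191 with phenol red. Every library of guide RNA plus Cas9 was above every library of phenol red, and S13 stood out as the highest of all. The mean was 36486 ± 1434 with guide RNA plus Cas9 and 33111 ± 2231 with phenol red (SD, n = 5 each), a log2 fold change of 0.14 ± 0.06 (SE), with an unadjusted p of 0.0367 and an adjusted p of 1 in limma. Groups without overlap were found for 1 of 126 members (0.794%), beside 0.426% of all genes, in this comparison. No member had them for guide RNA plus Cas9 over guide RNA (0.232% of all genes) or guide RNA against phenol red (0.204%). The members' share of 0.794% rests on 1 gene, too few to tell it from the background.

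atp5b had 43219, 45779, 46796, 44310.0 and 45698 with guide RNA plus Cas9, 43979, 43347, 44735, 44240.3 and 38549 with guide RNA and 37915, 39606, 43476, 43799 and 42749 with phenol red. It was lowest in S1, S10 and S2 and overlapped between the groups, with a log2 fold change of 0.12 ± 0.06 (SE; unadjusted p = 0.0533, adjusted p = 1 in limma) for guide RNA plus Cas9 against phenol red. Against guide RNA, atp5a1 was at 0.09 ± 0.06 and atp5b at 0.07 ± 0.05. Both genes were low in S1 and S10, the libraries in which 72 and 76 of the 86 nuclear subunits were above their means. The authors' deposited table gives 0.14 ± 0.06 for atp5a1 and 0.12 ± 0.05 for atp5b (log2, SE) for guide RNA plus Cas9 against phenol red, with adjusted p of 1.

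Of the 16 nuclear genes of complex V, 5 were above 0 for guide RNA plus Cas9 against phenol red (median -0.03), 5 against guide RNA (median -0.02), and 8 for guide RNA against phenol red (median -0.0002). Besides atp5a1 and atp5b, those above 0 against phenol red were atp5d of the central stalk at 0.07 ± 0.05 (SE), atp5f1 of the peripheral stalk at 0.01 ± 0.06 and atp5g3a, 1 of 3 genes for the rotating c ring, at 0.02 ± 0.06. atp5d was also among the 3 steadiest members, with an SD of log2 values of 0.0547. Within the c-ring genes, atp5g3b held 47.7% ± 0.72 of the counts with guide RNA plus Cas9, 47.6% ± 0.944 with guide RNA and 48.5% ± 1.39 with phenol red. atp5ib held 78.2% ± 1.38, 79.0% ± 1.28 and 78.05% ± 2.07 of its pair with atp5ia, which had the fewest reads of complex V subunits.

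The 17 AC024175 genes carry no individual names in the sources used here, so no role is given to any of them. Together they took 1.04% ± 0.207 of the reads with guide RNA plus Cas9, 1.13% ± 0.191 with guide RNA and 1.14% ± 0.115 with phenol red (SD, n = 5 each). AC024175.4, which took the most of these reads, had 433537, 552367, 421819.7, 420617 and 305908 with guide RNA plus Cas9, 491399, 560439, 505539, 375076 and 387341 with guide RNA and 409710.2, 497364, 528322, 459283 and 413009 with phenol red, highest in S7 and S12 and lowest in S15. Its log2 fold change was -0.13 ± 0.15 (SE) against guide RNA and -0.13 ± 0.13 against phenol red for guide RNA plus Cas9.

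AC024175.17 was the most variable member of mean 50 or more, with an SD of log2 values of 0.718. It had 5396, 9232, 4888, 4231 and 11262 with guide RNA plus Cas9, 16702, 11821, 6634, 3549 and 4278 with guide RNA and 3945, 4393, 9032, 12132 and 9031 with phenol red. S6 was highest and S9 lowest, both in the guide RNA group, and the groups overlapped throughout. Its log2 fold changes were -0.16 ± 0.48, -0.11 ± 0.40 and 0.04 ± 0.50 (SE) in the 3 comparisons. AC024175.24 had 127, 147, 149, 139 and 182 with guide RNA plus Cas9, 90.6, 118, 131, 131 and 156 with guide RNA and 114, 107, 162, 138 and 195 with phenol red, with a log2 fold change of 0.25 ± 0.14 (SE; unadjusted p = 0.103, adjusted p = 1 in limma) for guide RNA plus Cas9 over guide RNA. S15, S5 and S10 were the highest library of each group.

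Only 5 AC024175 genes had a mean of 50 or more, and the others carry large counting error. AC024175.1 had 8.26, 24.5, 14.1, 5.98 and 16.8 with guide RNA plus Cas9, 15.9, 12.8, 10.4, 7.02 and 7.34 with guide RNA and 18.02, 15.4, 18.7, 18.1 and 15.4 with phenol red, with a log2 fold change of -0.69 ± 0.26 (SE; unadjusted p = 0.0211, adjusted p = 1 in limma) for guide RNA against phenol red. Phenol red was narrow, and S6 of guide RNA overlapped it. AC024175.6 (-0.65 ± 0.35) and AC024175.2 (0.35 ± 0.23) came next by p in that comparison, and AC024175.19 was at 0.40 ± 0.25 for guide RNA plus Cas9 over guide RNA. AC024175.7, between 0 and 12 counts, was the member that failed the filter.

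Other genes of mitochondrial function were read from 11 lists, in which 325 of 345 symbols were matched, and 0 of them were called in any comparison. Of all genes tested, limma called 0.00463% in each comparison of guide RNA plus Cas9 and 0% for guide RNA against phenol red. The median log2 fold change of mitochondrial ribosomal proteins (72 genes) was -0.03 for guide RNA plus Cas9 over guide RNA, 19 of them above 0, -0.02 against phenol red, 21 above 0, and 0.0083 for guide RNA against phenol red, 40 above 0. Further assembly factors (36 genes) had medians of -0.04 and -0.03 in the comparisons of guide RNA plus Cas9 with guide RNA and phenol red, with 8 and 10 above 0. surf1, an assembly factor of complex IV, was at -0.19 ± 0.07 (SE; unadjusted p = 0.0127, adjusted p = 1 in limma) against phenol red. cyc1 stood at 0.04 ± 0.04 (SE) and cycsb, a cytochrome c gene, at -0.05 ± 0.07 against guide RNA.

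The tricarboxylic acid cycle (20 genes) had medians of 0.0036 against guide RNA and 0.0108 against phenol red for guide RNA plus Cas9, with 11 above 0 in each, and dlat, a subunit of pyruvate dehydrogenase, was at 0.19 ± 0.08 (SE; unadjusted p = 0.0288, adjusted p = 1 in limma) against phenol red. Glycolysis (31 genes) had medians of -0.02 and -0.01, with 9 and 12 above 0. Regulators of mitochondrial biogenesis (14 genes) had medians of 0.06 and 0.07, with 11 above 0 in each, and esrra, a nuclear receptor that activates respiratory genes, was at 0.08 ± 0.04 (SE) against guide RNA. Mitochondrial DNA replication and transcription (18 genes), RNA processing (16), import and protein quality control (30) and fusion and fission (8) had medians between -0.0064 and 0.0172 in these comparisons.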

How the data were processed

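Per the labels' protocols, oligo-dT captured RNA from embryo heads was made into stranded libraries and read from 1 end over 50 bp. Lanes held 5 libraries each, but the labels used here do not give the lane of a library, so whether lanes followed the groups is not known. The authors deposited 3 tables of 10 libraries. The submitters' processing notes name STAR, HTSeq, DESeq2, bcl2fastq, cutadapt and Trim Galore; the sources used here give no versions, settings, genome build or annotation. The deposited expression values are a signal, each gene's count scaled by 1 factor per library, called the normalized count. Beside them the authors deposited log2 fold changes with standard errors, a test statistic (a score) and p-values. The column headings S1 to S15 were assigned to groups by the tables that hold them. All values were whole multiples of 1 read's worth within 0.001 of a read (100% of values), which gave the reads and so the depth.

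limma 3.58.1 (R 4.3.3; trend and robust options) was run on log2(value + 1) of the groups compared, over genes of 10 or more in at least 5 libraries. P-values were adjusted by Benjamini-Hochberg over all genes tested, with 0.05 as threshold. On the log2(value + 1) scale the change of low genes is understated. Class scores use genes of mean 10 or more. Normalized counts are not per length, so rankings of genes by level and shares of a pair compare reads and not transcript numbers. Near-identical copies may share reads. The series design calls the libraries biological replicates. Members, lists and tests were chosen with earlier results of these data known. Genes named are the mitochondrially encoded protein genes, the nuclear subunits with most and fewest reads in each complex, the 5 smallest p in each comparison, the 5 most and 3 least variable members of mean 50 or more, alternative forms of a subunit, and up to 3 genes per other list. ndufs8b, ndufa4, sdhb, AC024175.4, the remaining sdhaf genes, the complex V genes above 0 and the pairs of ndufa9, ndufs8, sdhd and atp5i were added after their values were seen. Not every gene that meets these rules is reported here. Alternatives were TMM rescaling with and without mitochondrial genes, edgeR 4.0.16 and DESeq2 1.42.0 on recovered reads, no filter or a filter of 50, pseudocounts of 0.5 or 5, a joint fit of the 3 groups, omission of single libraries and a block of library sets.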

Additional observations from a re-analysis of the deposited data

Results flagged for a closer look

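Values of the named genes and class scores were examined in each group of 5 libraries, 219 group values in all. In 14 (6.39%), 1 library was far from the other 4, its gap to the nearest being over 0.71 of the group's range. For independent, normally distributed values this happens in about 1 in 20 groups. The group values share libraries and genes, so that rate is only a rough guide here and no test.

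In library S1 of phenol red, the mitochondrial minus nuclear score was -0.089, beside 0.004 to 0.041 in the other 4. S1 also had ndufa9b at 36.04 normalized counts (others 43.1 to 44.0) and atp5g3b, a c-ring gene, at 15804 (others 12780 to 13327). In S14 of guide RNA plus Cas9, the score of nuclear complex IV subunits was -0.144, beside -0.029 to 0.002. Every gene weighs equally in this score, and not all of them were low. In S14, cox4i1l was at 30.9 (mean over the 15 libraries 72.0), cox8b at 59.8 (98.2) and cox6b1 at 1394 (1871). The genes cox4i1, at 8277 (8354), and cox8a, at 7502 (7343), were close to their means.

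S12 of guide RNA plus Cas9 was high for 3 genes. mt-nd4 was at 73157 (others 59014 to 62789), its neighbour mt-nd4l at 10268 (others 8053 to 8525) and uqcrc1 at 8454 (others 7995 to 8114). In the same group, atp5a1 was at 38933 in S13 (others 35383 to 36321) and ndufa9b at 33.1 in S11 (others 42.0 to 44.9).

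With guide RNA alone, atp5b was at 38549 in S10 (others 43347 to 44735) and sdhaf1 at 253 in S9 (others 336 to 369). With phenol red, mt-co2 was at 131877 in S5 (others 108117 to 112726), ndufab1b at 1404.8 in S4 (others 1568 to 1634) and AC024175.2 at 15.2 in S3 (others 29.0 to 32.9).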

How the results depend on the processing

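No member was called under any alternative run, and ncapg2 stayed called in both comparisons of the Cas9 group. The median log2 fold change of the mitochondrially encoded protein genes, guide RNA plus Cas9 over guide RNA, was -0.037, and between -0.080 and -0.001 with 1 library left out. That of nuclear subunits was -0.027, between -0.056 and 0.002. Over phenol red they were -0.032 (-0.068 to -0.003) and -0.036 (-0.076 to -0.001). For guide RNA over phenol red they were -0.001 (-0.026 to 0.050) and close to 0 (-0.038 to 0.026). Leaving out 1 library thus moves these medians by over 1.5 times. The mitochondrial median of guide RNA plus Cas9 over guide RNA was -0.080 without S9 and -0.0005 without S7, and the nuclear median was 0.0019 without S6. Over phenol red, the nuclear median was -0.0007 without S1 and -0.0758 without S4, and the mitochondrial median -0.0034 without S5.

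No paired analysis was possible because the columns carry no replicate number, so the numbers in the sample titles could not be tied to them. The block used library sets found from the data, searched over 21776 genes outside the chain among 14400 groupings. These sets match the titles' numbers if the headings follow that order. They had correlations of deviations between 0.127 and 0.784. With them as a block, the smallest adjusted p of a member in limma was 0.983 (guide RNA plus Cas9 over guide RNA), 0.495 (over phenol red) and 0.521 (guide RNA over phenol red), and 3, 2 and 4 genes were called in all. In the same order, 0.917%, 2.29% and 1.04% of all genes had an unadjusted limma p under 0.05 without the block, and 4.55%, 9.12% and 7.71% with it. The limma SEs and p-values given for single members are from the fit without it, which leaves variation shared by these sets in the error.

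Few reads limit sdhda, ndufa12, uqcrb, cox6a2, ndufs8b and most AC024175 genes.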
